A study of Mus musculus with 60 samples.

Results

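The nuclear genes of the mitochondrial respiratory chain were followed in sorted glia of WT and AD mice, both microglia and astrocytes. Members were taken by name from a table of 35999 Ensembl mouse genes: symbols beginning with Nduf and a, b, c, s or v, with Uqcr, with Atp5 or with Cox4 to Cox8, together with Sdha, Sdhb, Sdhc, Sdhd and Cyc1, leaving out symbols that contain -ps. This gave 98 genes of the 35999: 39 of complex I, 4 of complex II, 9 of complex III, 21 of complex IV, 17 of complex V, and 8 assembly factors of complex I (Ndufaf1 to Ndufaf8) that the prefix Ndufa also takes in. Ndufa4 and Ndufa4l2 were counted with complex IV, where the Ndufa4 protein resides despite its name. Ndufa11b, Ndufb4c, Ndufs6b and Cox6c2 are extra copies of member genes by their names, and reads of a short gene and its near-identical copies, processed pseudogenes included, could have been exchanged.

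The respiratory chain sits in the inner mitochondrial membrane. Complex I takes electrons from NADH and complex II takes them from succinate; both pass them through ubiquinone to complex III, from there cytochrome c carries them to complex IV, and complex IV hands them to oxygen. Complexes I, III and IV pump protons, and complex V, the ATP synthase, makes ATP as the protons flow back. All subunits of complex II and most of the others are encoded in the nucleus, the remainder in mitochondrial DNA, so the assembly of complexes I, III, IV and V needs transcripts of both genomes.

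Mice were C57BL/6 (WT) or carried the APPswe/PS1-delta=E9 transgenes (AD), transgenes with familial Alzheimer mutations under which amyloid plaques form with age, and were 2, 4, 6, 9 or 12 months old; by the methods all were males, WT mice were littermates and each sample came from 1 brain. Cells were sorted from whole brains, microglia by CD45 and CD11b and astrocytes by ACSA2, which gave 20 groups of genotype, age and cell type with 3 libraries each by the labels. The table holds 1 FPKM value (fragments per kilobase, corrected for library size) per gene and group, which is read here as the authors' mean of its libraries. Values of single libraries were not used, so no value below has an SD, an n or a p-value, and "higher" and "lower" compare group values with no replicate check.

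In the libraries behind the columns, microglia held 13.1 to 20.3 M and astrocytes 17.8 to 22.8 M fragments, as read from the steps of the lowest values. The columns of WT 12-month and AD 4-month microglia showed the steps of 2 libraries and the others those of 3. Microglial markers (6 genes, Cx3cr1 and P2ry12 among them) summed to 5933 to 13718 FPKM in the microglia columns and to at most 11.5 in the astrocyte columns. All 6 astrocyte markers were present in the astrocyte columns, with sums of 258 to 448 FPKM, but 6 oligodendrocyte markers (Mbp among them) summed to 9966 to 17119 there, against 23.5 to 88.6 in the microglia columns. The columns labelled astrocytes thus carried much oligodendrocyte RNA, and in bulk samples fewer cells of a type and less RNA per cell cannot be told apart. Choroid plexus markers (6 genes, Ttr foremost) varied from 9.60 to 5461 FPKM over the microglia groups and 174 to 3076 over the astrocyte groups, and mural cell markers (8 genes) stood at 206 FPKM in AD 4-month microglia against 5.09 to 38.0 in the other microglia groups. Endothelial markers (6 genes) reached 1593 and 2036 FPKM in the 2-month and 4-month WT astrocytes against 294 to 1099.5 in the other astrocyte groups. The part of these cells in the results on members was not tested.

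Promoters bear on genes that move together, and those of respiratory chain genes are known for sites of NRF1, of ETS factors such as GABP, and of YY1. RefSeq promoters of the build GRCm38.p6 (250 bases before to 50 after the start) were matched for 76 of the 98 members. The letters GCGCATGC (NRF1), on either strand, occurred in 12 of the 76, or 15.8%, against 3.05% of the 27025 genes of the promoter table. The genes of the promoter table were not filtered for expression, so members are not set against genes of like level here or below. CCGGAAG (ETS) occurred in 18, or 23.7%, against 9.93%, and AAGATGGC (YY1) in 11, or 14.5%, against 3.19%; none of the 3 contains another. At least 1 motif was found in 34 members, or 44.7%, against 14.9%. Of the members with the highest fold of complexes I, IV and V in 6-month WT microglia, Atp5k was among these 34, and Ndufa12 and Cox6a2 were not. The following 4 are shown because Uqcr11 and Sdhb had the highest fold of their complexes in 6-month WT microglia, Atp5j2 has the YY1 letters just after its start, and Uqcrc1 was the member of complex III with the lowest fold. Capitals mark the motifs on either strand.
Uqcr11 (chr10:80406772-80407071, minus strand): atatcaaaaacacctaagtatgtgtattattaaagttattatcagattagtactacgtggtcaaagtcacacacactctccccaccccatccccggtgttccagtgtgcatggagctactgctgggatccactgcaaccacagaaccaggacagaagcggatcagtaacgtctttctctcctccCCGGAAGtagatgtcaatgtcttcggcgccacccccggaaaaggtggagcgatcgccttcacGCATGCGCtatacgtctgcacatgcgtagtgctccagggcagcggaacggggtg
Sdhb (chr4:140961021-140961320, plus strand): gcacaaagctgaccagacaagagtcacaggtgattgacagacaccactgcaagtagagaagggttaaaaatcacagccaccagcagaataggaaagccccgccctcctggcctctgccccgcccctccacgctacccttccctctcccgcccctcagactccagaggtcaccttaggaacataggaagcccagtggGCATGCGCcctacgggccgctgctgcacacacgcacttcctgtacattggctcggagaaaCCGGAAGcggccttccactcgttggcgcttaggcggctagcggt
Atp5j2 (chr5:145191492-145191791, minus strand): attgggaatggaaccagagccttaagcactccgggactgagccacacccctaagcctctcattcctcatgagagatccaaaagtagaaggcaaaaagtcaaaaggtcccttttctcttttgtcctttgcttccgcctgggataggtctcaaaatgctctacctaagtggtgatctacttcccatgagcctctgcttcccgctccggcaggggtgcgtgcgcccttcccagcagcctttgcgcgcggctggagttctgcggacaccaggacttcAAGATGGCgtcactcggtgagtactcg
Uqcrc1 (chr9:108936398-108936697, plus strand): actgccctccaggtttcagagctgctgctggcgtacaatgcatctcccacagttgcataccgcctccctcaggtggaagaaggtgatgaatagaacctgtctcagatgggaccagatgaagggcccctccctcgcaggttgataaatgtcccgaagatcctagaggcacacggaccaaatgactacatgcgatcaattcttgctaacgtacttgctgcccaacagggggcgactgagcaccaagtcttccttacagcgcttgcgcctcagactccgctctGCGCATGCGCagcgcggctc
Uqcr11 and Sdhb hold NRF1 and ETS letters, Atp5j2 holds YY1 letters, and Uqcrc1 holds NRF1 letters that read the same on both strands in an overlap. At 6 against 2 months in WT microglia the median log2 fold change was 0.88 over 34 members with a motif and 0.85 over the 41 members without one that were tested. It was 0.84 with and 0.77 without a motif in AD microglia at 6 months, 0.88 and 0.89 in WT astrocytes, 0.63 and 0.64 in AD astrocytes, and 1.002 and 0.88 for AD against WT microglia at 12 months.

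Members were high at 6 months in both genotypes and both cell types, and at 12 months in AD, and on the scaled values most members were lowest at 9 months in AD. As a share of the summed FPKM, AD at 9 months was not the lowest group. Together they took 1.14% of the summed FPKM in 2-month and 1.72% in 6-month WT microglia, and 1.16% and 1.82% in AD microglia of the same ages. In AD microglia the share was 1.33% at 9 months and 1.87% at 12 months, while WT microglia stood at 1.38% and 1.46% then. In WT astrocytes it was 2.69, 3.25, 4.21, 3.15 and 3.33% at 2, 4, 6, 9 and 12 months, and in AD astrocytes 2.89, 3.15, 3.86, 2.73 and 3.86%. Markers of ependyma (4 genes) were highest in the same 3 astrocyte groups, with 507 FPKM in WT at 6 months, 297 in AD at 6 months and 363 in AD at 12 months against 87.0 to 263 in the others. Choroid plexus markers in astrocytes were 2690, 3076 and 1874 FPKM in these groups, 2031 in WT at 4 months, 354 to 757 in 5 others and 174 in AD at 9 months. The part of these cells in the levels of members was not tested. Of the 84 members with at least 5 FPKM in all 10 microglia groups, 80 had their 3 highest values in WT 6-month, AD 6-month and AD 12-month microglia, and the exceptions were Atp5s, Cox6a2, Ndufaf4 and Uqcrc1. The highest group was AD at 12 months for 47, WT at 6 months for 30 and AD at 6 months for 6 of them, and AD at 9 months was the lowest for 72. In astrocytes 89 members reached that level in all 10 groups, of which 71 had the same 3 groups on top, 77 were highest in WT at 6 months and 67 lowest in AD at 9 months. These counts of highest and lowest groups were not made over all genes. They do not show how far the pattern is particular to the members, and other expressed genes shifted too, as given below.

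**Figure D1:**
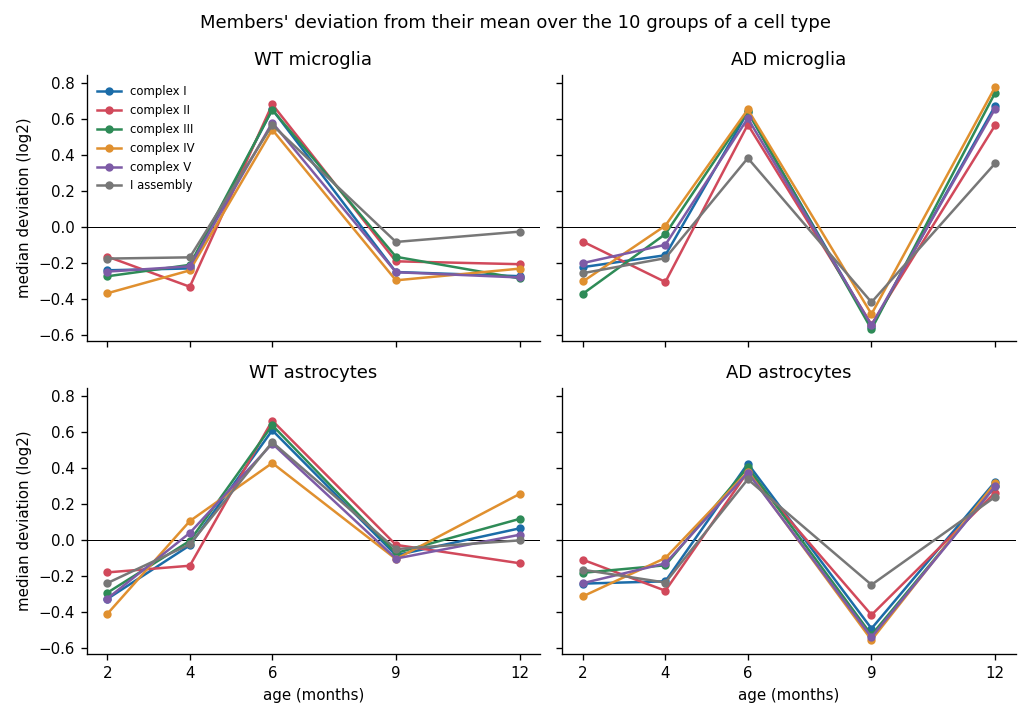
Median deviation of members (log2 of size-factor scaled FPKM + 0.1) from their own mean over the 10 groups of a cell type, against age in months, 1 line per complex, for members of at least 5 FPKM in all 10 groups. The median over all such members was 0.63 in WT 6-month, 0.61 in AD 6-month and 0.68 in AD 12-month microglia and -0.54 in AD 9-month microglia, and the complexes differ most where complex II lies at -0.13 and complex IV at 0.25, in WT 12-month astrocytes, and where assembly factors lie at 0.35 and complex IV at 0.78, in AD 12-month microglia.

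For comparisons, FPKM of each cell type was scaled by size factors taken over its 10 groups, 0.1 was added and log2 was taken. A gene counted as higher or lower past 0.5 or -0.5 on this scale, among genes of at least 0.5 FPKM in a group compared. In microglia Cox8b passed this filter against 2 months only through the later group, at 4 and 6 months in both genotypes and at 12 months in AD. All comparisons with 2 months within a genotype and cell type share the 2-month column, and all groups of a cell type share 1 scaling. In WT microglia at 6 against 2 months, 88 of 93 tested members were higher and 0 lower, with a median log2 fold change of 0.87, against 26.9% higher of all genes tested. At 4, 9 and 12 months 10 of 95, 2 of 92 and 3 of 92 were higher, where all genes gave 12.9%, 13.8% and 15.3%. In AD microglia 80 of 95 members were higher at 6 months (median 0.79; all genes 22.8%) and 81 of 95 at 12 months (0.86; 24.6%), against 15 of 95 at 4 months (22.4%) and 1 of 94 at 9 months (23.4%). At 9 months in AD, 18 members were lower, with a median of -0.31 and 14.1% of all genes lower. The 2 members lower at both 6 and 12 months in AD microglia were Cox4i2 and Ndufa4l2, the paralogs described further on.

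The level of all expressed genes shifted in the same comparisons, so the members are also given relative to it. Among the 5522 genes of at least 5 FPKM in both groups, the median log2 fold change at 6 against 2 months in WT microglia was 0.39 and 38.0% were higher. The 84 members of that level had a median of 0.87, which is 0.48 above it, and 80 of the 84 lay above the genes' median. The excess over genes of this level was 0.50 in AD microglia at 6 months, 0.58 at 12 months, 0.56 in WT astrocytes at 6 months, and 0.40 and 0.38 in AD astrocytes at 6 and 12 months. With quantile normalization, which forces the same distribution of values on every group, 34 members were higher at 6 months in WT microglia (median 0.41; 18.4% of all genes), 40 in AD microglia (16.9%) and 44 at 12 months in AD microglia (17.6%). The number of members past the threshold thus depended on the scaling, while 78 of 84 still lay above the median of genes of this level in 6-month WT microglia.

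Astrocytes followed with some differences between ages. At 6 against 2 months 85 of 96 members were higher in WT (median 0.88; 28.0% of all genes) and 65 of 96 in AD (0.60; 17.9%). At 12 months 43 were higher in WT (0.44; 16.2%) and 51 in AD (0.54; 18.7%), at 4 months 32 in WT (0.37; 12.9%) and 6 in AD (0.07; 13.2%), and at 9 months 11 in WT (0.23; 12.1%) and 1 in AD (12.7%). In AD at 9 months 5 were lower (10.2% of all genes), with a median of -0.25. With quantile normalization 42 were higher in WT and 27 in AD at 6 months (22.4% and 14.7% of all genes), and 28 in each genotype at 12 months (15.5% and 17.4%). Set against the mean of the other 4 ages in place of 2 months, 6-month groups had 88 members higher in WT microglia (26.9% of all genes), 74 in AD microglia (16.8%), 73 in WT astrocytes (23.1%) and 60 in AD astrocytes (10.4%). With quantile normalization these counts were 19, 15, 18 and 8, against 18.8%, 14.6%, 18.1% and 8.72% of all genes, so that the members' shares lay near those of all genes.

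**Figure D2:**
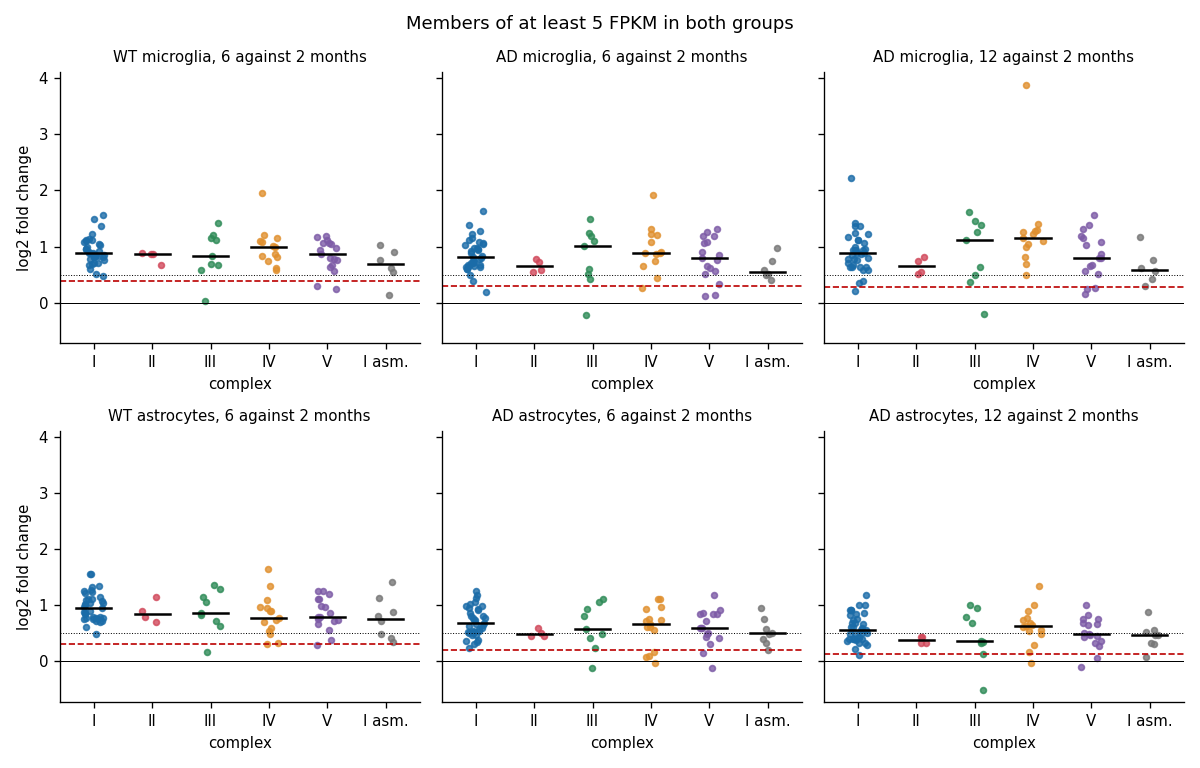
Log2 fold change of each member (points) by complex in 6 comparisons with 2 months, for members of at least 5 FPKM in both groups; black bars are medians, the dotted line is 0.5 and the dashed red line is the median of all genes of that level. In WT microglia at 6 months 80 of 84 points lie above the red line, and Uqcrc1 of complex III lies near 0.

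AD and WT microglia of the same age differed most in members at 12 months. Past 0.5 in either direction were 4 of 94 members at 2 months (all genes 14.8%), 6 of 95 at 4 months (25.8%) and 5 of 94 at 6 months (14.9%). At 9 months 8 of 93 members were lower in AD (7.43% of all genes), a share near that of all genes, with a median of -0.29. Members past the threshold then were 9, and 4 with deposited FPKM, with quantile normalization or with size factors resting on genes at or above 1 FPKM. At 12 months 82 of 94 were higher in AD and 0 lower (median 0.96; 25.7% of all genes higher), and 43 were higher with quantile normalization (20.7% of all genes). Cox8b passed the filter at 12 months only through the AD group. Choroid plexus markers were 969 FPKM in AD and 9.60 in WT microglia at 12 months, and 5461 and 2070 at 4 months, and their part in the difference was not tested. The WT 12-month column rests on 2 libraries by its steps. In astrocytes 2, 5 and 3 of 96 members passed the threshold at 2, 4 and 6 months (12.1%, 20.3% and 20.8% of all genes). At 9 months 20 of 96 were lower in AD (5.6% of all genes), with a median of -0.39 and 2 of 96 above 0, and this was 7 with quantile normalization (6.37% of all genes) and 9 when size factors rested on genes at or above 1 FPKM. At 12 months 11 were higher (14.6%), with a median of 0.23.

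Complex I, the largest of the chain, had 37 of 38 tested members higher at 6 against 2 months in WT microglia, with a median of 0.87. Ndufa12, an accessory subunit of the peripheral arm, had the highest fold of the complex at 6 months in WT microglia, 1.56 on the log2 scale. It was 18.1, 23.2, 51.2, 17.6 and 24.7 FPKM in WT microglia at 2, 4, 6, 9 and 12 months and 20.1, 29.7, 50.1, 15.3 and 45.5 in AD microglia. In astrocytes, where its range over the 10 groups was the largest (1.98 on the log2 scale), it was 46.9, 51.7, 131, 50.3 and 43.6 FPKM in WT and 50.7, 50.2, 117, 36.2 and 91.3 in AD. The 6-month groups and the AD 12-month group of each cell type lay above the other 7. Ndufs1, the large iron-sulfur subunit of the arm that oxidizes NADH, had the lowest fold of complex I in microglia. Its values were 5.75, 5.47, 7.69, 5.8 and 5.29 FPKM in WT microglia and 6.34, 5.2, 6.96, 5.06 and 7.03 in AD microglia, so that the log2 fold change at 6 months was 0.48 in WT and 0.20 in AD. Ndufv1, which binds NADH, had log2 fold changes of 0.51 in WT and 0.39 in AD microglia at 6 months.

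Ndufa1, a small accessory subunit needed for assembly, was the most abundant complex I member in microglia. It was 128, 201, 342, 156 and 159 FPKM in WT and 139, 250.3, 414, 197 and 619 in AD microglia, with a log2 fold change of 2.22 at 12 against 2 months in AD. The AD 12-month value was above that of every other group of either cell type, whose highest was 414. In astrocytes Ndufa1 was between 147 FPKM (AD, 9 months) and 349 (AD, 6 months). Ndufb9, another accessory subunit and the most abundant of complex I in astrocytes, was 328, 469.7, 782, 444 and 534 FPKM in WT and 365, 426, 701, 322 and 686 in AD astrocytes. Ndufb4c, an extra copy of Ndufb4, had the highest complex I fold at 6 months in WT astrocytes (7.43 to 21.1 FPKM, 1.56 on the log2 scale), beside 64.4 to 156 FPKM for Ndufb4 itself (1.34). Of the 8 assembly factors, 7 were higher in WT microglia at 6 months, with a median of 0.63, and the exception was Ndufaf4 (6.37 and 6.7 FPKM, log2 fold change 0.14).

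Complex II, succinate dehydrogenase, had all 4 members higher at 6 months in microglia of both genotypes and at 12 months in AD. Sdhb, its iron-sulfur subunit, was 65.3, 61.4, 115, 66.1 and 63.4 FPKM in WT microglia and 70.9, 64, 117, 58.6 and 119 in AD microglia. Sdha, the flavoprotein that binds succinate, had the lowest fold of the 4 (43.5 and 66.3 FPKM at 2 and 6 months in WT microglia, 0.68), and its excess at 12 months in AD over WT microglia (0.53) was -0.03 with quantile normalization. Sdhc, a membrane anchor, stood apart at 9 months. It was 16.7, 17.6, 29.1, 16.6 and 16.9 FPKM in WT microglia and 18.6, 19.97, 26.5, 10.1 and 25.9 in AD microglia. In astrocytes it was 26.1, 28.8, 43.1, 30.0 and 33.1 FPKM in WT and 26.5, 30.3, 36.6, 16.5 and 35.8 in AD, so that AD 9-month cells had the lowest value in both cell types. Its log2 difference of AD from WT at 9 months was -0.81 in microglia and -0.88 in astrocytes, while Sdha, Sdhb and Sdhd lay between -0.27 and -0.38. In WT astrocytes at 12 months 0 of 4 members of complex II were higher (median 0.07), against 14 of 20 of complex IV (0.75). Over members the fold change fell with log2 exon length in this comparison (Pearson's r -0.55). The part of length in the contrast of the 2 complexes was not tested.

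Complex III had 8 of 9 members higher at 6 months in WT microglia, with a median of 0.83. Uqcr11, its smallest subunit, was 103, 154, 264, 115 and 130.2 FPKM in WT and 108, 177, 289, 105 and 315 in AD microglia, and in astrocytes it ran from 183 (AD, 9 months) to 487 (WT, 6 months). The exception was Uqcrc1, a core protein of the matrix side, which did not follow the others. It was 49.9, 44.3, 48.8, 46.6 and 46.5 FPKM in WT and 53.2, 48.7, 43.8, 38.3 and 43.9 in AD microglia, and 66.5, 70.4, 71.8, 74.8 and 70.0 in WT and 74, 67, 66.4, 57.4 and 51.6 in AD astrocytes. The log2 fold change at 6 months was 0.04 in WT and -0.21 in AD microglia, and at 12 against 2 months in AD astrocytes -0.51, past the threshold. Its Pearson correlation with the mean of the members over the 20 groups, centred within cell type, was 0.24, the lowest of the 83 members of at least 5 FPKM in all 20, against a median of 0.96; groups of 1 cell type share their size factors, so this is a description. Its partner Uqcrc2, the other core protein, had log2 fold changes of 0.68 and 0.52 at 6 months in WT and AD microglia. Cyc1, cytochrome c1, and Uqcrfs1, the Rieske iron-sulfur protein, had 0.58 and 0.69 in WT microglia.

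Complex IV, cytochrome c oxidase, had 17 of 17 tested members higher at 6 months in WT microglia, with a median of 1.02. Of its 21 members, Cox4i2, Ndufa4l2, Cox7b2 and Cox8c were under 0.5 FPKM in both groups and were not tested. Cox8b passed the filter only through the 6-month group, where it was high. Cox6a1, the liver-type form of subunit VIa and the most abundant complex IV member, was 301, 331, 525, 290.1 and 303 FPKM in WT and 312, 372, 546, 298 and 723 in AD microglia. In astrocytes it was 609, 847, 879, 730.1 and 981 FPKM in WT and 603, 802, 988, 529 and 994 in AD. Cox4i1, the common form of subunit IV, was 151, 150.3, 304, 158 and 138 FPKM in WT and 173, 161, 309.5, 149.6 and 395 in AD microglia, with a log2 difference of AD from WT of 1.55 at 12 months. Cox5a had the lowest fold in WT microglia (24.2 and 34.6 FPKM, 0.58). Cox7a2l, a factor of supercomplexes of III and IV, had the lowest in WT astrocytes (44.6 and 52.9 FPKM, 0.31).

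Tissue isoforms of complex IV differed among themselves. Cox6a2 is the heart and muscle form of subunit VIa. It had the largest range in microglia among members of at least 5 FPKM in all 10 groups (4.78 on the log2 scale). Among members of at least 5 FPKM in both groups, Cox6a2 also had the highest fold of complex IV at 6 months in WT microglia. It was 6.77, 17.7, 25.3, 13 and 18.8 FPKM in WT microglia and 11, 6.02, 39.9, 48.7 and 156 in AD microglia, so that AD exceeded WT at each age but 4 months, by 3.08 on the log2 scale at 12 months. At 9 months, where most members were at their lowest in AD, Cox6a2 was 1.81 higher in AD than in WT. In astrocytes it did not exceed 1.33 FPKM, and it was the 1 member higher in microglia than in astrocytes in all 10 groups of genotype and age. Cox8b, the heart and muscle form of subunit VIII in rodents, was 0.162, 1.7, 6.14, 0.253 and 0 FPKM in WT and 0.405, 7.17, 9.18, 0.121 and 2.07 in AD microglia. Ttr, the choroid plexus transthyretin, stood at 304, 2037, 3334, 251 and 8.86 FPKM in WT and 1155, 5389, 4836, 190.1 and 954 in AD microglia; both genes were highest in AD at 4 and 6 months and WT at 6 months, and the part of other cells in Cox8b was not tested.

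Ndufa4l2, a paralog of Ndufa4 known to be induced by hypoxia, and Cox4i2, the hypoxia-related form of subunit IV, were genes of the astrocyte columns. Ndufa4l2 was 29.7, 36.6, 35.5, 60.5 and 63.3 FPKM in WT and 46.2, 44.8, 44, 44.5 and 55.9 in AD astrocytes. Cox4i2 was 16, 23.3, 21.6, 27.8 and 37 FPKM in WT and 21, 21.2, 22.9, 21.5 and 29.3 in AD astrocytes. Neither peaked at 6 months, and both were highest in WT at 12 months. In microglia Ndufa4l2 was 7.85 FPKM and Cox4i2 2.23 in AD at 4 months, 2.03 and 0.744 in AD at 2 months, and under 1 in the other 8 groups. The summed mural cell markers were 206 FPKM in AD 4-month, 38.0 in AD 2-month and 5.09 to 22.5 in the other microglia, and 806 to 1699 in astrocytes, and their part in these 2 genes was not tested. Cox6b2, a testis form, was 6.11 to 19.3 FPKM in astrocytes and 1.37 to 6.19 in microglia. Among members of at least 5 FPKM in both groups, it had the highest fold of complex IV at 6 months in WT astrocytes. Cox7a1, a heart and muscle form, was 2.07 to 6.9 and 0.46 to 1.95, and Cox7b2 was 1.27 to 3.2 in astrocytes and at most 0.227 in microglia. Cox8c was listed at 0 in 18 of the 20 groups and at most 0.0877 FPKM.

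**Figure D3:**
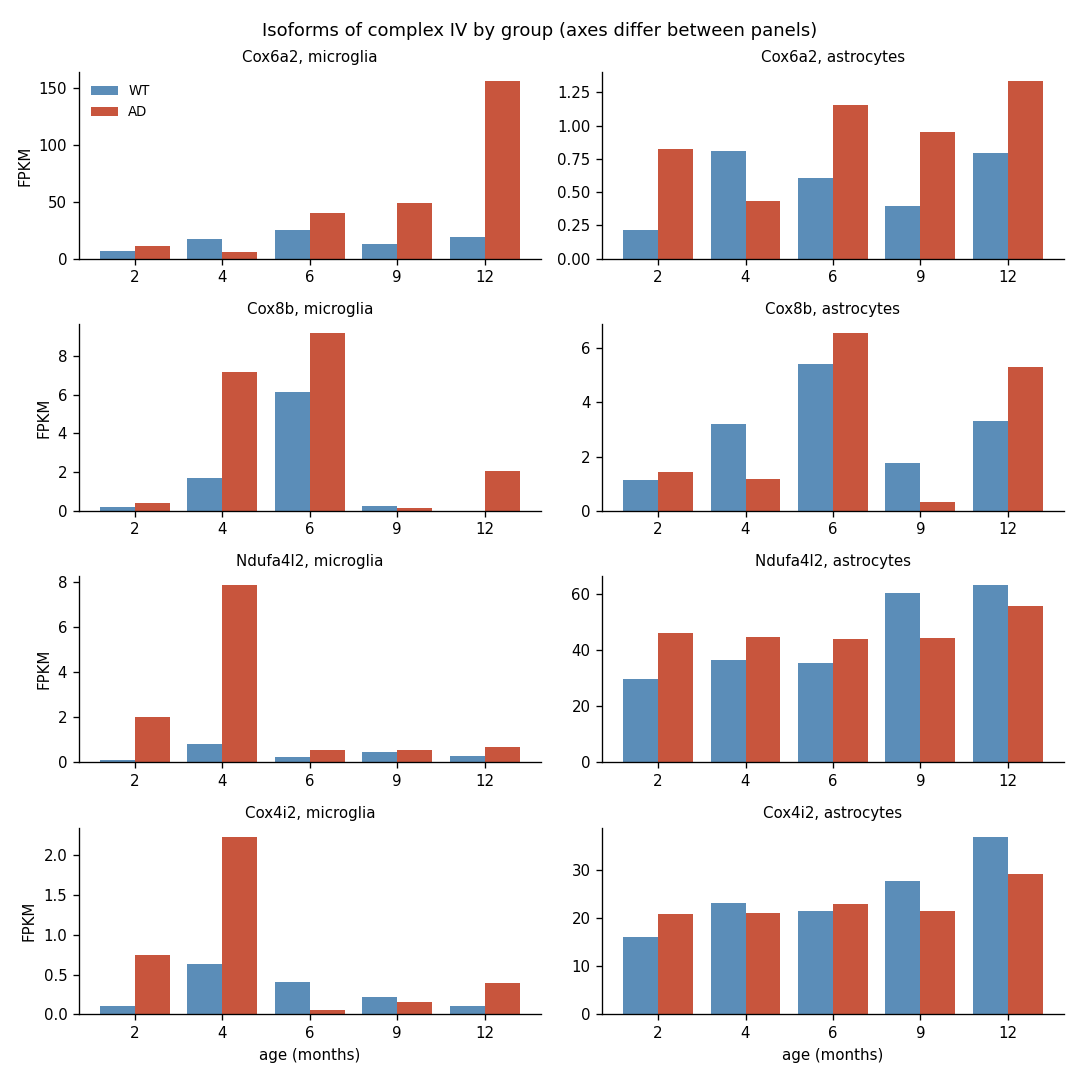
FPKM of Cox6a2, Cox8b, Ndufa4l2 and Cox4i2 by age in months, WT in blue and AD in red, microglia at left and astrocytes at right, with axes that start at 0 and differ between panels. Cox6a2 reaches 156 FPKM in AD 12-month microglia, and Ndufa4l2 and Cox4i2 reach 63.3 and 37 in WT 12-month astrocytes.

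Complex V had 15 of 17 members higher at 6 months in WT microglia, with a median of 0.87. Atp5b, the catalytic beta subunit and the most abundant of complex V, was 129, 118, 191, 117 and 111 FPKM in WT and 136, 125, 184, 96.8 and 191 in AD microglia. Atp5k, subunit e of the membrane part, had the highest fold of the complex (28.8 to 62.2 FPKM in WT microglia, 1.18, and 59.4 to 136 in WT astrocytes, 1.26). Atp5a1, the alpha subunit, was 106 and 125 FPKM at 2 and 6 months in WT microglia (log2 fold change 0.30) and did not pass the threshold at 6 months in either genotype or cell type. Atp5s, the least variable member in microglia (range 0.34), was 7.93 to 9.93 FPKM there. Atp5g2, a gene of the ring subunit c, was the least variable in astrocytes (range 0.40, 51.5 to 64.6 FPKM), while Atp5g1 and Atp5g3, which encode the same mature protein, had log2 fold changes of 0.74 and 0.97 at 6 months in WT astrocytes against 0.30 for Atp5g2. Atpif1, the inhibitor of the ATP synthase, is no member by name; it was 80.8 and 105 FPKM at 2 and 6 months in WT microglia. Cycs, the cytochrome c that links complexes III and IV, was 25.4 and 39.3.

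In microglia 79 of the 93 members tested in each comparison were higher at 6 months in both genotypes, against 17.3% of all genes, and 78 of these were higher in AD at 12 months as well, against 14.4%. The AD comparisons at 6 and 12 months share the AD 2-month column. Those tested in both genotypes and not higher at 6 months in either genotype were Atp5a1, Atp5s, Ndufs1 and Uqcrc1. In astrocytes 64 of 96 were higher at 6 months in both genotypes (13.3% of all genes), and 48 of these were higher in AD at 12 months (10.6%).

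The fold change of all genes differed with exon length in the same comparisons, though the shortest genes did not always shift most. Members are short: their exons cover a median of 1525.5 bases, against 3054.5 for the 3616 genes of at least 5 FPKM in all 20 groups. At 6 against 2 months in WT microglia the medians of all genes tested were 0.20, 0.40, 0.13 and -0.28 over 4 classes of equal size from the shortest to the longest exons, and those of members 1.01, 0.82, 0.68 and 0.60. Members lay above all genes in each class, although the longest held 3 members. The classes hold all genes that passed the filter of 0.5 FPKM, so genes were not matched to members in length and level together. Across 84 members of at least 5 FPKM in all microglia groups, Pearson's r of this fold change with log2 exon length was -0.52, and over 89 in astrocytes at 12 against 2 months in WT it was -0.55. With fold changes corrected for length and GC 85 members were higher at 6 months in WT microglia (median 0.83), 73 in AD microglia and 69 at 12 months in AD microglia. In astrocytes this was 78 in WT (0.68) and 47 in AD at 6 months, and 26 in WT and 31 in AD at 12 months, against 43 and 51 without it. In AD microglia at 9 against 2 months 36 members were lower after the correction, against 18 without it. The median of all genes after the correction was 0.13 at 6 months in WT microglia. In AD microglia it was 0.10, -0.02 and 0.07 at 6, 9 and 12 months. In astrocytes it was 0.08 in WT and 0.05 in AD at 6 months, and 0.03 and 0.04 at 12 months. Shares of all genes past the threshold after the correction are not reported here, so these counts stand without that background.

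**Figure D4:**
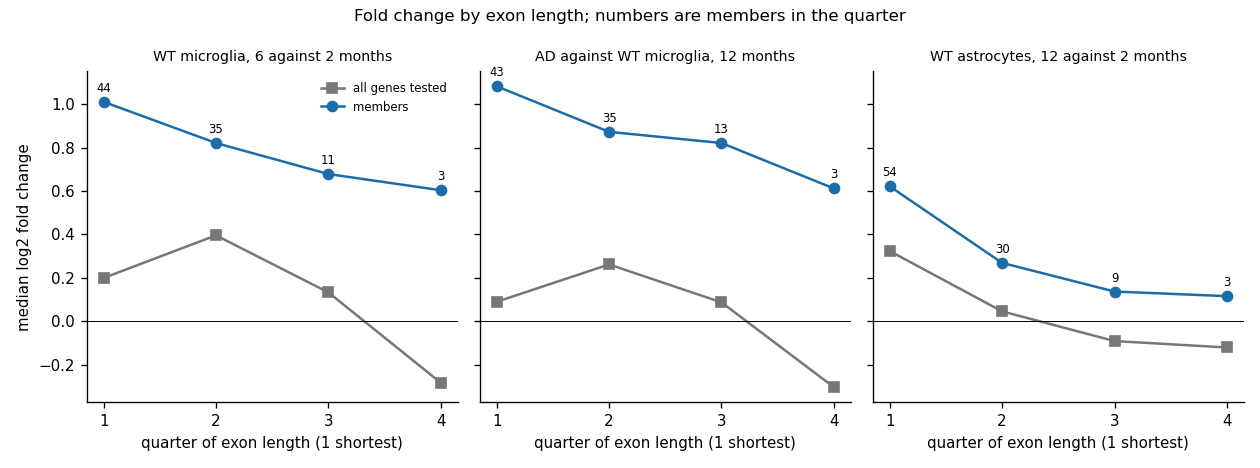
Median log2 fold change by class of exon length (4 classes of equal size, 1 the shortest) of members in blue, with their number, and of all genes tested in grey, in 3 comparisons. In WT microglia at 6 against 2 months members lie at 1.01, 0.82, 0.68 and 0.60 and all genes at 0.20, 0.40, 0.13 and -0.28.

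The 13 subunits encoded in mitochondrial DNA did not follow the nuclear members. At 6 against 2 months in WT microglia 6 were higher and 6 lower, the lower ones being mt-Nd2, mt-Nd3, mt-Nd4, mt-Nd4l, mt-Nd5 and mt-Nd6, all of complex I. These 6 had their 3 lowest values in exactly the groups where the nuclear members were highest, WT and AD at 6 months and AD at 12 months. mt-Nd2 was 391, 709, 209, 661 and 469 FPKM in WT and 397, 691, 238, 699 and 315 in AD microglia. mt-Nd6, the subunit read from the other strand, was 204, 359, 77.7, 348 and 266 in WT and 243, 350.0, 82.7, 417 and 129 in AD microglia. In astrocytes the same 3 groups were the lowest for mt-Nd2, mt-Nd3, mt-Nd4, mt-Nd5 and mt-Nd6, with mt-Nd2 at 704, 1216, 391, 967 and 972 FPKM in WT and 835, 1056, 483, 1009 and 524 in AD. The other mitochondrial subunits differed: mt-Co2 of complex IV was lowest at 2 months, with 15, 26.5, 41.8, 38.8 and 36.6 FPKM in WT and 17.7, 43.2, 31.2, 52.9 and 41.3 in AD microglia. mt-Co1, also of complex IV, was 547 to 1458 FPKM in microglia and was lowest at 2 months in each genotype too. mt-Co2 and mt-Nd4l (2.56 to 18.7 FPKM in microglia) thus stood far below it. mt-Nd1, of complex I as well, was 707 and 1039 at 2 and 6 months in WT microglia. At 9 against 2 months, where few nuclear members were higher, 12 of the 13 were higher in WT and 12 in AD microglia. Reads of these genes can also stem from nuclear copies of mitochondrial DNA. The part of such copies in the low levels of mt-Co2 and mt-Nd4l was not tested.

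**Figure D5:**
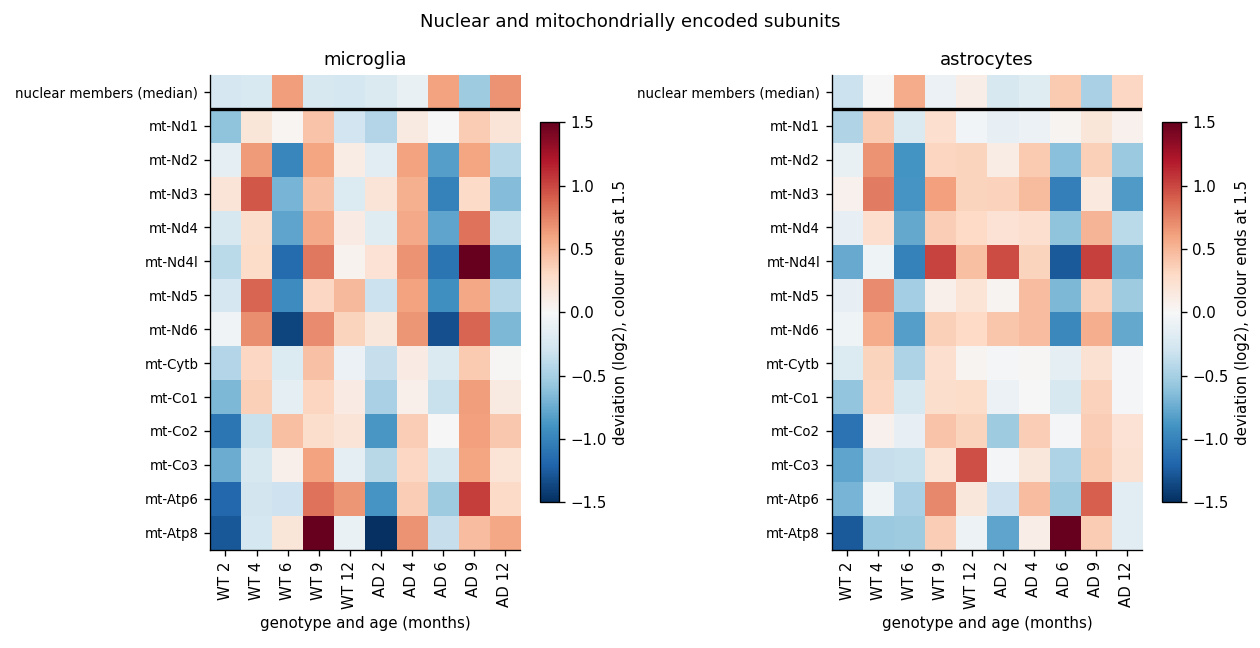
Deviation (log2) of each mitochondrially encoded subunit from its mean over the 10 groups of a cell type, with the median of the nuclear members in the top row; red is above and blue below the mean, and columns are genotype and age in months. In microglia the nuclear row is red at WT 6, AD 6 and AD 12 months (0.63, 0.61 and 0.68), where mt-Nd2 to mt-Nd6 are blue.

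Of genes that act on the chain, 38 assembly factors outside the naming rule (Surf1, Sco1, Bcs1l and others; 37 in the table) had 16 of 35 tested higher and 2 lower at 6 against 2 months in WT microglia, with a median of 0.49. In WT astrocytes 22 of 36 were higher (0.63). Of 13 transcriptional regulators (Nrf1, Gabpa, Yy1, Tfam, Ppargc1a and others), 0 of 10 tested were higher and 1 lower in WT microglia at 6 months, and 0 of 12 higher and 3 lower in WT astrocytes. Of all genes 26.9% were higher and 25.3% lower in the first comparison and 28.0% and 26.2% in the second, so the counts of lower regulators are at or under the share of all genes. Nrf1 was between 3.07 and 3.83 FPKM over all microglia groups and Gabpa between 3.22 and 4.49. Yy1 was 4.8, 4.52, 3.31, 5.3 and 5.13 FPKM in WT and 4.44, 5.52, 3.14, 5.27 and 3.04 in AD microglia, with its 3 lowest values at 6 months and in AD at 12 months. The regulator lower in WT microglia at 6 months was Pprc1. Its 3 lowest values in microglia fell in the same groups (2.42, 2.65 and 2.2 FPKM). Tfam went the other way, with its 3 highest values there in microglia (8.51, 8.04 and 7.26 FPKM) and in astrocytes (8.31, 7.36 and 7.15). Outside the rule, the genes whose values over the 20 groups, centred within cell type, were most like the members' mean were Gm10250 (Pearson's r 0.993), a pseudogene in RefSeq, Sec61b (0.990), a subunit of the translocon of the endoplasmic reticulum, and Minos1 (0.989), a small subunit of the mitochondrial contact site complex.

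Members were lower in microglia than in astrocytes, with size factors over all 20 groups. Lower by over 0.5 were 65, 81, 62, 80 and 82 of 96 tested members in WT at 2, 4, 6, 9 and 12 months, where all genes gave 37.5%, 37.1%, 37.2%, 37.9% and 37.9%. In AD they were 69, 67, 55, 71 and 46 of 95 or 96, with 38.0%, 37.8%, 37.7%, 36.7% and 37.6% of all genes. The median log2 difference ran from -1.19 in WT at 12 months to -0.46 in AD at 12 months. In all 10 groups 42 of the 95 members tested in each were lower, against 28.9% of all genes, among them Ndufs5, Cox6c, Atp5o and Uqcrfs1. Of members near equality, Sdhd was 98.3 FPKM in microglia and 94.5 in astrocytes of 2-month WT mice, Ndufs3 37.0 and 37.8, and Ndufs8 129 and 130.2. Ndufaf7 was higher in microglia in 8 of the 10 groups and Ndufaf6 in 7. Oligodendrocyte markers summed to at least 9966 FPKM in every astrocyte column, and the part of those cells in this difference was not tested.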

How the data were processed

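RNA sequencing of sorted microglia and astrocytes gave 60 libraries in 20 groups by the labels. The authors aligned reads (the methods name HISAT2 and no build, the submitters' processing notes Bowtie 0.12.2 and mm8), counted them per gene and deposited FPKM, 1 value per gene and group in 20 columns; 0 columns were left unused, and counts were not analysed here. No positions are given from the files. Symbols came from GENCODE M21, matched for 35882 IDs, whose exon lengths fit the steps of the FPKM values (96.0% to 98.5% of each group's lowest values lay on a step within 0.02%). Values under 0.5 FPKM rest on few fragments.

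Size factors (median of ratios) within a cell type scaled the FPKM values (over all 20 groups for microglia against astrocytes), and log2 was taken after adding 0.1. Fold changes on this scale understate the change of low genes. Genes needed 0.5 FPKM in a group compared; the threshold was 0.5 on the log2 scale. limma, planned for values of single libraries, was not run, so no test was made. Alternatives were deposited FPKM, quantile normalization, size factors resting on genes at or above 1 FPKM, a pseudocount of 1, no filter, a length and GC correction (polynomial of degree 3), a threshold of 1, and promoters from 100 bases before the start. Members and lists were chosen with earlier results of these data known. Named genes are core subunits, tissue isoforms, per complex the highest and lowest at 6 against 2 months in WT and the most abundant, the members of smallest and largest range, and the 3 genes most like the members; other named genes were chosen after their values were seen. For 1 core subunit no values are reported here. Some promoters had no entry and are not shown. Fold changes and the correction were tested on simulated data. Python 3.11.15, NumPy 2.4.6, pandas 2.3.3, SciPy 1.17.1 and Matplotlib 3.10.9 were used.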

Additional observations from a re-analysis of the deposited data

How the results depend on the processing

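No paired analysis was possible because the table holds 1 column per group with no replicate numbers, and leaving out a replicate was not possible for the same reason. The values are counts of members past the threshold, given where an alternative moved the count by over 1.5 times. They stand without the share of all genes under the same alternative, which is given above only for some. With deposited FPKM, lower members in AD at 9 against 2 months were 10 in microglia (18) and 2 in astrocytes (5), members past the threshold in AD against WT microglia at 9 months 4 (9), and higher members in AD astrocytes at 9 months 2 (1); the main count is in parentheses here and below. Quantile normalization gave, at 6 against 2 months, 34 (88) in WT and 40 (80) in AD microglia and 42 (85) in WT and 27 (65) in AD astrocytes, and at 12 months 44 (81) in AD microglia, 28 (43) in WT and 28 (51) in AD astrocytes. For 6 months against the other ages it gave 19 (88), 15 (74), 18 (73) and 8 (60) in WT and AD microglia and WT and AD astrocytes. It gave 25 (15) in AD microglia and 21 (32) in WT astrocytes at 4 months, 2 (1) higher and 5 (18) lower in AD microglia and 2 (1) higher and 3 (5) lower in AD astrocytes at 9 months, and for AD against WT 4 (9) and 44 (82) in microglia and 8 (21) and 6 (11) in astrocytes at 9 and 12 months. Sdha turned from 0.53 to -0.030 in AD against WT microglia at 12 months; no other value past the threshold changed sign under the alternatives run. Size factors resting on genes at or above 1 FPKM gave 24 (15) in AD microglia at 4 months, 2 (1) higher and 5 (18) lower there at 9 months, 2 (1) higher and 2 (5) lower in AD astrocytes at 9 months, 4 (9) and 11 (21) for AD against WT at 9 months in microglia and astrocytes, and 33 (74), 44 (73) and 30 (60) at 6 months against the other ages in AD microglia, WT astrocytes and AD astrocytes. A pseudocount of 1 gave 1 (3) in WT microglia at 12 months and 1 (5) and 1 (3) for AD against WT at 6 months in microglia and astrocytes. No filter gave 5 (2) and 5 (3) in WT microglia at 9 and 12 months, and 7 (4) and 9 (5) for AD against WT microglia at 2 and 6 months. The length and GC correction gave 1 (3) in WT microglia at 12 months, 7 (15) higher at 4 and 36 (18) lower at 9 months in AD microglia, 2 (5) for AD against WT microglia at 6 months, 20 (32), 5 (11) and 26 (43) in WT astrocytes at 4, 9 and 12 months, 2 (6) higher at 4, 9 (5) lower at 9 and 31 (51) higher at 12 months in AD astrocytes, 6 (11) for AD against WT astrocytes at 12 months and 38 (60) at 6 months against the other ages in AD astrocytes. A threshold of 1, stricter by construction, left in WT microglia 4 (10), 33 (88), 0 (2) and 1 (3) at 4, 6, 9 and 12 months, in AD microglia 5 (15), 31 (80) and 36 (81) at 4, 6 and 12 months and 2 (18) lower at 9, in WT astrocytes 7 (32), 37 (85), 1 (11) and 10 (43), and in AD astrocytes 1 (6), 13 (65) and 9 (51) with 1 (5) lower at 9. For AD against WT it left 2 (4), 0 (5), 1 (9) and 42 (82) in microglia at 2, 6, 9 and 12 months and 1 (2), 2 (5), 0 (3), 2 (21) and 1 (11) in astrocytes at 2, 4, 6, 9 and 12 months, and for 6 months against the other ages 19 (88), 4 (74), 6 (73) and 2 (60). Counts of members lower in microglia than in astrocytes stayed within 1.5 times of the main count under the 4 alternatives run. With promoters from 100 bases before the start, NRF1 letters were found in 13.2%, ETS letters in 21.1% and YY1 letters in 14.5% of the 76 members. The causes of these changes were not tested. Precision is limited by the single value per group: no spread over animals could be given, and low isoforms such as Cox8b, Cox8c and Cox7b2 rest on few fragments.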
